A study of Homo sapiens with 6 samples.

Results

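Activins, the follistatins that bind them and the SMAD proteins that inhibit their signal were followed through 10 genes, chosen by name from the activin pathway: INHBA, INHBB, FST, FSTL1, FSTL3, ACVR1B, ACVR2A, ACVR2B, SMAD6 and SMAD7. All 10 genes were on the array, read by 27 of its 54675 probe sets, each of which carried 1 gene symbol in the platform annotation. The family was picked because INHBA and SMAD7 were lower and FSTL3 higher in these same arrays, so the values of those 3 genes are given as a description, with no test. The cells were U251, a human glioma line, measured on 6 Affymetrix arrays of total RNA, 3 from a stable line that overexpressed PARK2 and 3 from a stable control line that overexpressed GFP. Both lines were made by viral infection with polybrene and selection with puromycin, and were grown in DMEM with fetal bovine serum. The labels name neither the promoter of the transgene nor whether a line was a pool of infected cells or a clone, and they number the 3 arrays of each line as biological replicates without saying whether these came from separate cultures or platings of that line, so p-values measure only the spread between these arrays, which may be technical.

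Activin is a dimer of inhibin beta chains, beta A from INHBA and beta B from INHBB, and belongs to the TGF-beta superfamily of secreted ligands. It binds a type II receptor (ACVR2A or ACVR2B), which recruits and phosphorylates the type I receptor ACVR1B, and this kinase phosphorylates SMAD2 and SMAD3, which enter the nucleus with SMAD4. Follistatin (FST) and FSTL3 wrap around activin outside the cell and keep it from its receptors, while SMAD7 and SMAD6 act inside the cell on the receptors and are themselves induced by the signals they damp, SMAD6 mainly in the BMP branch of the superfamily.

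The data were linear intensities, 1 per probe set and array, with array medians from 16.2 to 19.3. Differences are given on the log2(intensity + 16) scale, PARK2 minus control, and adjusted p-values are limma's with Benjamini-Hochberg adjustment over the 26603 probe sets tested. The words rose and fell are kept for differences with an adjusted p under 0.05. All 8 astroglial and glioma markers checked, GFAP, S100B, VIM, NES, SOX2, SOX9, FABP7 and CD44, were detected above the filter on dim probe sets, their summed intensity lying between 26024 and 31079 on control arrays and between 28321 and 29338 on PARK2 arrays. The sum is carried by the brightest markers, and S100B, a dimmer one, was 2.93-fold lower in PARK2 arrays without overlap (366 ± 119 and 125 ± 5.90, log2 difference -1.39), while GFAP was on average 1.44-fold higher, with overlap. The part of these markers in the results was not tested. Of 11 markers of blood, endothelial, epithelial, neuronal and oligodendroglial cells 4 passed that filter, and the 11 together summed to between 132 and 189 on control and between 132 and 179 on PARK2 arrays. Neither list has a defining marker listed at 0.

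The start sites of the members whose levels are described most fully are shown first, since they differ in base composition and in the motifs they hold. Each sequence holds the 250 bases before an annotated RefSeq start in GRCh38.p14, read 5′ to 3′ on the strand of the gene, and motifs were searched in the window that also takes in the 50 bases after it. Capitals mark letters searched on both strands, none of which contains another. Searched were the SMAD palindrome GTCTAGAC, the SMAD half-site CAGAC and the GC-rich SMAD element GGCGCC. Also searched were the cyclic AMP response element TGACGTCA and the AP-1-like letters TGANTCA, where N is any base.
INHBA, chr7:41703091-41703340, minus strand: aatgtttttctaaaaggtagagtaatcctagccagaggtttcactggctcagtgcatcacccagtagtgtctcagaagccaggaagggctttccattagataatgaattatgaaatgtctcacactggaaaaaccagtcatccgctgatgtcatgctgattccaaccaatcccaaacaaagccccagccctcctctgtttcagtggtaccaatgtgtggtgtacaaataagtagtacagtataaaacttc
SMAD7, chr18:48950966-48951215, minus strand: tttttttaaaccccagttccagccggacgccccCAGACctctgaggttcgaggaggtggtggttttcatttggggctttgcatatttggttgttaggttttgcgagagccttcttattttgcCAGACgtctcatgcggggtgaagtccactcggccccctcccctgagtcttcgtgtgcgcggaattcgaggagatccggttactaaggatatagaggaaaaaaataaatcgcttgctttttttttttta
SMAD6, chr15:66701986-66702235, plus strand: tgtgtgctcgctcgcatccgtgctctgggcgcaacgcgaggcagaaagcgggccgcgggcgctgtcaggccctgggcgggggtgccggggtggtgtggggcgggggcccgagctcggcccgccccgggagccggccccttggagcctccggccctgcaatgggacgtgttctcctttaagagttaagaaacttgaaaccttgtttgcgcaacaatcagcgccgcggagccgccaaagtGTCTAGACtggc
FST, chr5:53480379-53480628, plus strand: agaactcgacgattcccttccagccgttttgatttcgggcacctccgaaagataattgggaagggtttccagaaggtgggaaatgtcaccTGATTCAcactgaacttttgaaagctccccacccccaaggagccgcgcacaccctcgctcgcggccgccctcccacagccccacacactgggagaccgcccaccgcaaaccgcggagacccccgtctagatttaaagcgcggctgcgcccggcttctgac
FSTL3, chr19:676142-676391, plus strand: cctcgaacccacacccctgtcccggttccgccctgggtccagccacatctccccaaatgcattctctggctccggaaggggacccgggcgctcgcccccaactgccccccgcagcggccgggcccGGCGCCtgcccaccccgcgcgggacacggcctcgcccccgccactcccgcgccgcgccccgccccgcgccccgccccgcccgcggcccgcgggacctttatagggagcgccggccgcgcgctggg
All 10 genes matched the RefSeq table, with 3 windows for SMAD7, 2 for ACVR1B and 1 for each of the others. The windows printed for SMAD7, SMAD6, FST and FSTL3 are at the outermost start of the gene. That of INHBA, the only one it has, is not. No searched letters fall in the stretch printed for INHBA, whose match starts at position 28 after the start. The window of INHBA is 43.3% G and C, and that of SMAD7 48.3%, against 63.7% for FST, 68.0% for SMAD6 and 78.7% for FSTL3. The palindrome GTCTAGAC, found in 0.202% of 35116 windows of this kind, was in the SMAD6 window, starting 12 bases before the start site (position -12), and in none of the other members' windows. The half-site CAGAC was in the windows of 4 members (INHBA, SMAD7, ACVR2A and the inner window of ACVR1B) against 45.3% of all windows, and GGCGCC in those of 4 (INHBB, FSTL1, FSTL3 and ACVR1B) against 19.2%. TGANTCA was in the FST window alone among the members, as TGATTCA, against 7.71% of all windows, and TGACGTCA (1.85%) in none of them. A match in these letters is a description of the sequence, and binding was not measured.

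Of the 27 member probe sets 22 passed the filter on dim probe sets and were tested, and together they read 9 of the 10 genes. The other 5 were 2 probe sets of ACVR1B and 1 each of INHBB, ACVR2B and SMAD6, which were too dim for a test. Of the 22 tested, 8 were past the threshold as higher and 4 as lower, against 9.1% and 11.3% of all probe sets tested (20.4% together). Since the family was chosen on this contrast, nothing is read from that count. Outside INHBA, SMAD7 and FSTL3, 7 of 17 tested probe sets were higher and 0 were lower. The 7 belong to FST, FSTL1 and ACVR2A, and probe sets of the same gene are not independent readings. Of those 17, 3 had a control mean under the lowest mean tested (9.96) and passed the filter only through the PARK2 arrays, and 2 of these were among the 7. With both group means above it, 5 of 14 were higher. By the brightest probe set, 3 of the 6 tested genes outside the chosen 3 were higher, against 13.3% of all genes. The median difference of the 17 was 0.20 against -0.01 over all probe sets tested, and is a description of what passed the filter.

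**Figure D1:**
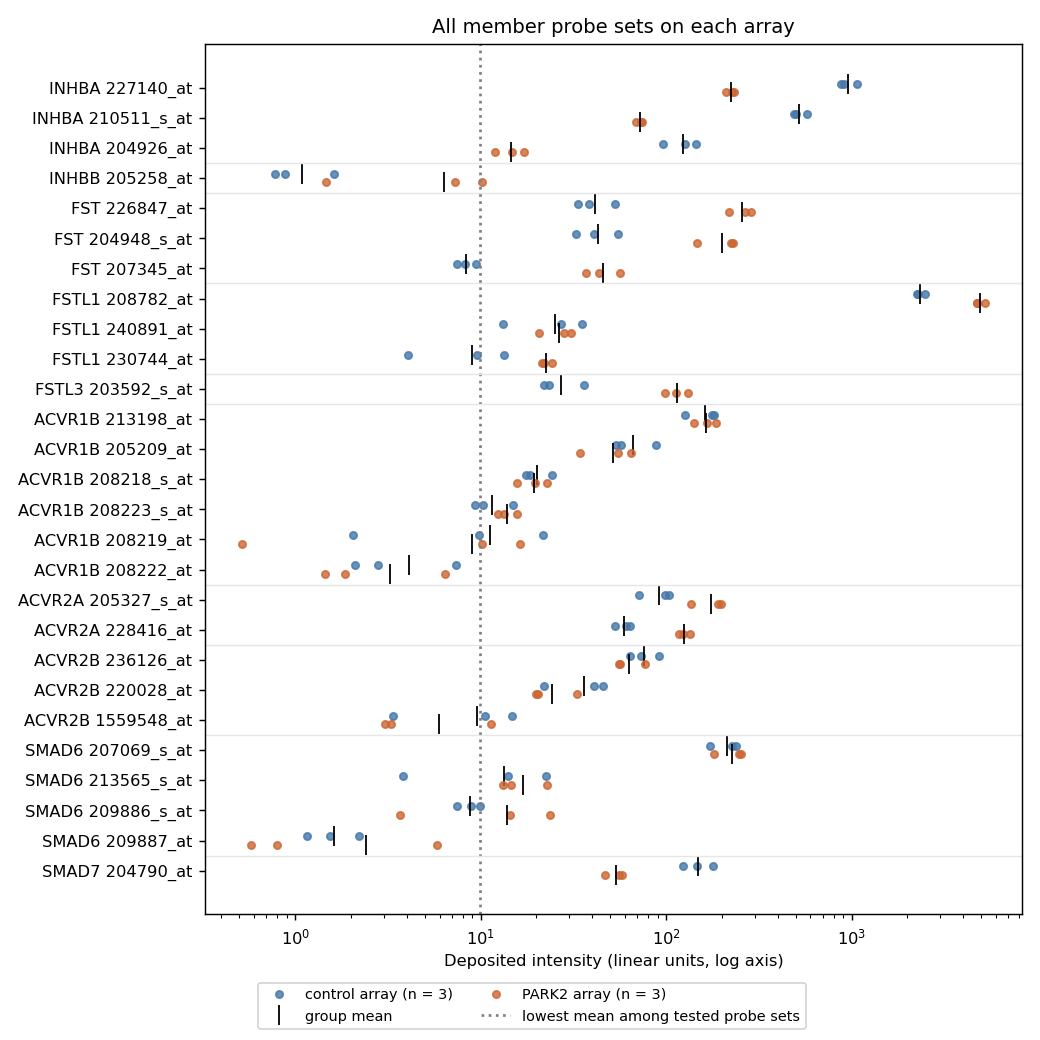
Deposited intensity of all 27 probe sets of the 10 genes on each of the 6 arrays, on a log axis, with blue points for the 3 control and orange points for the 3 PARK2 arrays and a bar for each group mean. The 3 INHBA probe sets and the SMAD7 probe set lie lower in PARK2 cells without overlap, and those of FST, FSTL3 and ACVR2A lie higher.

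The activin beta A gene INHBA was lower in PARK2 cells on each of its 3 probe sets. The brightest, 227140_at, read 1072, 878 and 914 on the control arrays, in order of replicate number, and 209.7, 226 and 232 on the PARK2 arrays. Its means were 954 ± 103 (SD, n = 3) and 222 ± 11.4, a level 4.29-fold lower and a log2 difference of -2.02. All 3 PARK2 arrays lay far under all 3 control arrays, and the PARK2 arrays differed little among themselves, with a coefficient of variation of 5.12%. Probe set 210511_s_at read 500.2, 573 and 492 in control and 68.6, 73.3 and 74.5 in PARK2 arrays, 7.23-fold lower (log2 difference -2.61). The dimmest, 204926_at, read 96.1, 146 and 126 in control and 12.0, 14.7 and 17.1 in PARK2 arrays, 8.40-fold lower. Its log2 difference of -2.17 moved with the pseudocount, to -2.98 with 1 and -1.24 with 64 in place of 16, since its PARK2 values were close to the lowest mean tested, 9.96. The groups of INHBA were apart on every probe set, as they were for 35.1% of all probe sets tested. In a lysate of many cells, fewer cells that express a gene and less of its RNA per cell cannot be told apart, which holds for every gene described here.

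INHBB, the gene of the beta B chain, was read by a single probe set that was too dim for a test. It was at 0.782, 0.884 and 1.61 in control and at 7.30, 10.2 and 1.47 in PARK2 arrays. PARK2 replicate 3 lay among the control arrays, so the groups overlapped. INHBC, a further beta chain gene, was tested and gave -0.10 on the log2 scale (limma's adjusted p 0.731 among genes). INHA, which codes for the alpha chain that turns a beta chain into inhibin, was dim as well, at a mean of 17.2 in control and 12.5 in PARK2 arrays (log2 difference -0.24, limma's adjusted p 0.524 among genes).

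Follistatin, the activin antagonist, rose on both brighter probe sets of FST. The brightest, 226847_at, read 52.8, 33.4 and 38.4 in control and 267, 219 and 285 in PARK2 arrays. Its mean went from 41.5 ± 10.1 (SD, n = 3) to 257 ± 34.1, 6.19-fold higher, with a log2 difference of 2.25 (SE 0.18, limma's adjusted p 7.02e-08). The lowest PARK2 array was 4.15 times the highest control array on this probe set. Probe set 204948_s_at read 54.8, 40.6 and 32.5 in control and 223, 146 and 228 in PARK2 arrays (log2 difference 1.87, adjusted p 2.44e-06). The dimmest, 207345_at, was at 8.38 ± 0.959 in control and 45.8 ± 9.92 in PARK2 arrays. Its control level lay under the lowest mean tested, so it passed the filter only through the PARK2 arrays, and its log2 difference of 1.33 is given as a description (2.30 with a pseudocount of 1 and 0.60 with one of 64). FST was not among the genes that the family was chosen for, but its values come from the same contrast.

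FSTL3, a second secreted protein that binds activin, was higher in PARK2 cells on its only probe set, 203592_s_at. It read 36.1, 22.0 and 23.5 in control and 98.4, 113 and 131 in PARK2 arrays. The means were 27.2 ± 7.75 and 114 ± 16.3, 4.19-fold higher, and the lowest PARK2 array was well above the highest control array. The log2 difference of 1.60 was 2.05 with a pseudocount of 1 and 0.96 with 64.

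FSTL1, a secreted glycoprotein with a follistatin-like domain that is known more for its effects on BMP signalling than for binding activin, was the most intense of the family's probe sets and rose as well. Probe set 208782_at read 2495, 2284 and 2241 in control and 4767, 5256 and 4716 in PARK2 arrays, with coefficients of variation of 5.81% and 6.07%. It rose 2.10-fold, a log2 difference of 1.06 (SE 0.11, limma's adjusted p 1.6e-06). The other probe sets of FSTL1 were dim and did not give the same picture. On 230744_at the arrays read 9.51, 4.08 and 13.3 in control and 24.2, 21.4 and 22.0 in PARK2 cells, a log2 difference of 0.64 with an adjusted p of 0.0462. This probe set too passed the filter only through the PARK2 arrays. The call was lost without control replicate 1 (adjusted p 0.0683) or 2 (0.209), without PARK2 replicate 1 (0.116), 2 (0.0916) or 3 (0.104), with a pseudocount of 1 (0.0627) and without the filter on dim probe sets (0.0765). On 240891_at the groups overlapped, at 25.2 ± 11.2 and 26.4 ± 5.20 (adjusted p 0.877, and 0.0308 with array weights). The fit with array weights stopped before it converged. It called 5905 probe sets higher and 5352 lower, against 2422 and 2994 in the main fit, so nothing is read from its calls.

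Of the 3 receptor genes, ACVR2A was past the threshold and ACVR2B and ACVR1B were not. ACVR2A, a type II receptor for activin, rose on both of its probe sets. Probe set 228416_at read 60.5, 64.1 and 53.2 in control and 117, 123 and 135 in PARK2 arrays, 2.11-fold higher (log2 difference 0.90, SE 0.17, limma's adjusted p 0.000779). Probe set 205327_s_at read 98.2, 103 and 71.8 in control and 189, 197 and 136 in PARK2 arrays (log2 difference 0.82, adjusted p 0.00368). The groups did not overlap on either probe set.

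ACVR2B, the other type II receptor, was lower on average on each of its 3 probe sets, and the groups overlapped on all of them. Probe set 236126_at read 91.0, 63.9 and 73.0 in control and 56.6, 55.4 and 76.5 in PARK2 arrays, a log2 difference of -0.22 (95% interval -0.61 to 0.17, adjusted p 0.472). Probe set 220028_at gave -0.35 (interval -0.83 to 0.12, adjusted p 0.314), and the third, 1559548_at, was not tested. With array weights, in the fit that did not converge, 220028_at was past the threshold (-0.45, adjusted p 0.0409).

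ACVR1B, the type I receptor kinase of activin, had 6 probe sets, 4 of them tested, with log2 differences from -0.29 to 0.12. The brightest, 213198_at, read 180.2, 178 and 126 in control and 186, 166 and 142 in PARK2 arrays. Its log2 difference was 0.04 with a 95% interval of -0.34 to 0.41 (adjusted p 0.920), so a change of either sign within that interval could not be seen with 3 arrays a group. Probe set 205209_at, at 66.1 ± 18.7 and 51.4 ± 15.5, gave -0.29 (adjusted p 0.404). It was past the threshold with array weights (-0.50, adjusted p 0.0208), in the fit that did not converge.

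SMAD7, the inhibitory SMAD that blocks the type I receptors of activin and TGF-beta, was lower in PARK2 cells on its only probe set, 204790_at. It read 146, 179 and 123 in control and 46.9, 57.8 and 55.8 in PARK2 arrays. The means were 149 ± 28.2 and 53.5 ± 5.79, 2.79-fold lower, a log2 difference of -1.24. The highest PARK2 array was under the lowest control array.

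SMAD6, the other inhibitory SMAD, which acts mainly on the BMP branch, was not past the threshold on any probe set. Its brightest, 207069_s_at, read 239, 227 and 173 in control and 247, 181 and 253 in PARK2 arrays. The groups overlapped, with means of 213 ± 35.3 and 227 ± 40.2 and a log2 difference of 0.08 (95% interval -0.29 to 0.45, limma's adjusted p 0.812). Its other probe sets were dim: 213565_s_at gave 0.20 and 209886_s_at 0.22 (adjusted p 0.659 and 0.634), and 209887_at, at most 5.83 on any array, was not tested. The control mean of 209886_s_at, 8.73, lay under the lowest mean tested (9.96), so it passed the filter only through the PARK2 arrays.

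**Figure D2:**
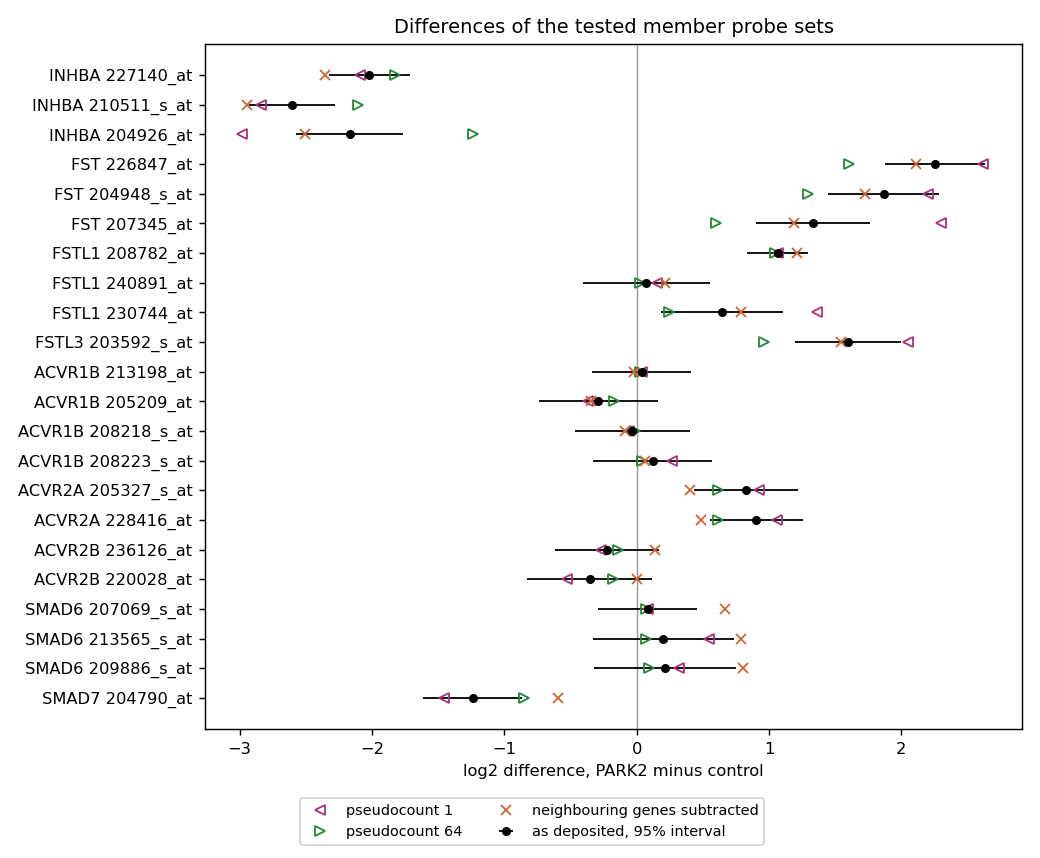
Log2 difference, PARK2 minus control, of the 22 tested probe sets, with its 95% interval as a line, and the values with pseudocounts of 1 and 64 and after the median of neighbouring genes was subtracted. The lines of INHBA, SMAD7 and FSTL3 show the spread between arrays and are no test, since these genes were chosen for their difference. The SMAD7 value moves from -1.24 to -0.60 and those of SMAD6 move up when neighbours are subtracted, while dim probe sets such as INHBA 204926_at move with the pseudocount.

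Neighbouring genes on the chromosome moved with some of the family and against others. For each gene the 20 nearest tested genes on each side were taken, other members left out, and read by their brightest probe sets. Around SMAD7 on chromosome 18, 29 of 40 neighbours were lower and 0 higher at an adjusted p under 0.05, with a median log2 difference of -0.65, against 15.6% lower and 13.3% higher among all 13720 genes. Around SMAD6 on chromosome 15, 28 of 40 were lower and 0 higher (median -0.59), while SMAD6 itself was at 0.08. Around ACVR2A on chromosome 2, 20 of 40 were higher and 2 lower (median 0.42). Around ACVR2B on chromosome 3, 0 were higher and 14 lower (median -0.36), close to the -0.22 and -0.35 of its own tested probe sets.

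INHBA went against its neighbours. On chromosome 7, 21 of its 40 neighbours were higher and 1 lower, with a median of 0.33, and the nearest tested genes on either side, SUGCT and GLI3, were at 1.22 and 1.47. FSTL1 also differed in sign from its neighbours on chromosome 3, of which 0 were higher and 9 lower (median -0.14). The neighbours of FST (median 0.14, 5 higher and 3 lower), of FSTL3 (0.05, 5 and 2 of 32), of ACVR1B (0.06, 5 and 3) and of INHBB (0.03, 6 and 1) had medians above that of all genes, -0.0030. The copy number of these regions was not measured, and its part in any of these values was not tested.

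With the median of its neighbours subtracted, the log2 difference of SMAD7 was -0.60 in place of -1.24. Those of the ACVR2A probe sets were 0.48 (adjusted p 0.0726) and 0.40 (0.178), and were no longer past the threshold. SMAD6 probe sets 207069_s_at and 213565_s_at went from 0.08 and 0.20 to 0.67 and 0.79 and then passed it (adjusted p 0.0143 and 0.0405). These calls come from the subtracted median of -0.59, a constant, and are no test of SMAD6 against its region. Probe set 213565_s_at was also dim, at a mean of 13.4 in control and 16.9 in PARK2 arrays. The other tested SMAD6 probe set, 209886_s_at, passed the filter only through the PARK2 arrays, and its 0.80 is a description. INHBA was at -2.36, -2.94 and -2.50, the FST probe sets at 2.11, 1.73 and 1.19, FSTL3 at 1.55 and the bright FSTL1 probe set at 1.21, while the tested ACVR2B probe sets were at 0.14 and 0.0030. The error of the neighbours' median is not in these p-values.

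**Figure D3:**
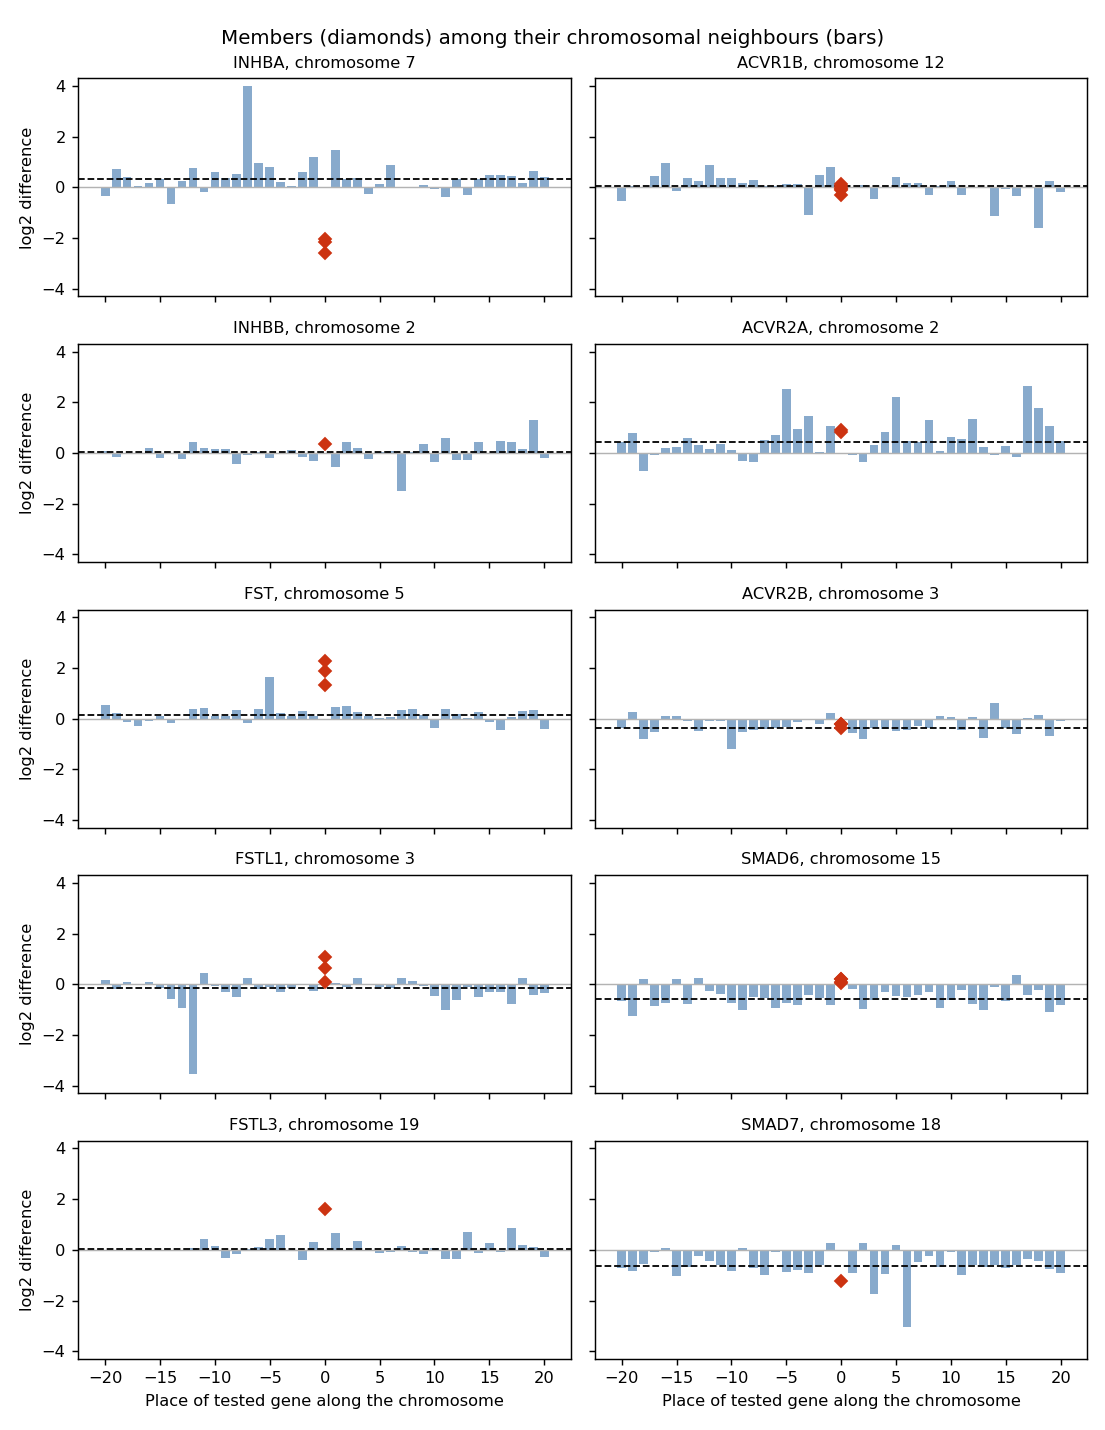
Log2 difference, PARK2 minus control, of the 20 nearest tested genes on each side of each of the 10 genes (bars, in order along the chromosome), with the gene's own probe sets as red diamonds at place 0 and the neighbours' median as a dashed line. SMAD7 and SMAD6 sit among genes that are mostly lower, ACVR2A among genes that are mostly higher, and INHBA below neighbours that are mostly higher. FSTL3 has 12 tested genes on its left.

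The genes whose pattern over the 6 arrays was nearest to that of INHBA, by the root mean square distance of log2 values centred on each gene's mean, were PTPRB (distance 0.07), SOCS2 (0.09) and IFFO2 (0.11). PTPRB, a receptor tyrosine phosphatase, was at 1118 ± 190 in control and 254 ± 5.07 in PARK2 arrays. Nearest to SMAD7 were NFATC2 (0.09), SNX10 (0.11) and RAB15 (0.11), and nearest to FSTL3 were LIFR (0.08), TXNIP (0.09) and MGARP (0.09). LIFR, the receptor of leukaemia inhibitory factor, was at 124 ± 27.6 and 426 ± 32.6. This measure follows mostly the size of the difference between the groups, and the 6 arrays hold only that contrast.

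The SMADs that carry the activin signal were lower alongside SMAD7. Of 6 receptor-regulated and common SMADs 0 rose and 3 fell, against 13.3% and 15.6% of all 13720 genes in the fit by brightest probe sets. The list median was -0.28 against -0.0030 for all genes. SMAD3 read 1741, 1417 and 1573 in control and 732, 882 and 742 in PARK2 arrays and fell by 0.99 on the log2 scale (SE 0.14, limma's adjusted p 3.16e-08). SMAD4, the common partner, fell by 0.67 (adjusted p 0.000604) and SMAD2 by 0.58 (adjusted p 0.00277). SMAD1, SMAD5 and SMAD9, which carry BMP signals, were at 0.28, 0.08 and 0.01 (adjusted p 0.191, 0.749 and 0.969). SMAD2 and SMAD4 are among the 40 neighbours of SMAD7, and SMAD3 among those of SMAD6. With the median of their own neighbours subtracted, SMAD2 was at 0.07 (adjusted p 0.827), SMAD4 at -0.06 (0.857) and SMAD3 at -0.44 (0.0153). SMAD4 was at -0.31 (adjusted p 0.142) as the mean of its probe sets and at -0.30 (0.248) without those marked _x_at and _s_at, and 1 gene of the list rose without control replicate 1.

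Over 8 lists of other TGF-beta superfamily genes, 92 of 130 were tested, and 15 were past the threshold as higher and 19 fell, 37.0% together, against 28.8% of all genes. For each list below, the shares to set beside its counts are 13.3% higher and 15.6% lower among all genes. Of the 15, 2 (BMP5 and TGFBR3) passed the filter only through the PARK2 arrays. The higher count was 26 without control replicate 1 and 9 without PARK2 replicate 3, 26 under quantile normalization and 23 under trimmed mean scaling. The lower count was 11 after the neighbour correction and 10 without probe sets marked _x_at and _s_at. In the list of activin and TGF-beta branch ligands 1 of 11 genes rose and 0 fell. This was GDF15, a stress-induced distant relative of TGF-beta, at 1.43 on the brightest and 0.67 as the mean of its probe sets, and TGFB1, TGFB2 and TGFB3 were at -0.23, 0.13 and -0.45 (adjusted p 0.377, 0.577 and 0.0782). Of 5 tested BMP ligands 1 was past the threshold as higher and 0 fell. This was BMP5, at 7.78 in control and 21.2 in PARK2 arrays (0.67, adjusted p 0.0311), which passed the filter only through the PARK2 arrays. The call of BMP5 was lost without control replicate 2 (adjusted p 0.0504) or 3 (0.174) and without PARK2 replicate 2 (0.136) or 3 (0.0836), and after the neighbour correction (0.263). Without the filter on dim probe sets its adjusted p was 0.0642, and in the fit of all tested probe sets 0.0552, neither past the threshold. Without control replicate 3 or PARK2 replicate 3, 1 ligand of the activin and TGF-beta branch fell, and 1 BMP ligand fell without any 1 of the PARK2 arrays.

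Of 10 receptors and co-receptors 3 were past the threshold as higher and 3 fell. TGFBR3, or betaglycan, a co-receptor that presents TGF-beta and lets inhibin compete with activin for type II receptors, was at 7.86 ± 4.15 (SD, n = 3) in control and 62.9 ± 11.9 in PARK2 arrays. Its control level was under the lowest mean tested, so it passed the filter only through the PARK2 arrays, and its log2 difference of 1.73 (2.95 with a pseudocount of 1 and 0.82 with one of 64) is a description. The BMP co-receptor gene RGMA fell from 198 ± 55.6 to 32.8 ± 1.26 (-2.10, adjusted p 7.19e-15), its receptor NEO1 fell by 0.70, and TGFBR1, the type I receptor of TGF-beta, fell by 0.53. NEO1 was no longer past the threshold without control replicate 2 (adjusted p 0.102) or after the neighbour correction (-0.16, 0.657), nor was TGFBR1 without probe sets marked _x_at and _s_at (-0.42, 0.118). The receptor list had 5 higher genes without control replicate 1 and 1 without control replicate 2 or PARK2 replicate 3.

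Among 13 extracellular inhibitors and latency proteins 2 rose and 2 fell (4 rose without control replicate 1). TMEFF2, a membrane protein with follistatin-like domains, rose by 1.57 (adjusted p 2.09e-11) on its brightest probe set and was at 0.48 (adjusted p 0.0621) without probe sets marked _x_at and _s_at, and VASN rose by 0.70. The BMP antagonist CHRDL1 fell by 0.80, and LTBP3, which holds latent TGF-beta in the matrix, fell by 0.66. LTBP3 was at -0.32 (adjusted p 0.211) after the neighbour correction and at 0.26 (0.509) without probe sets marked _x_at and _s_at. Of 21 intracellular regulators 2 rose and 5 fell. The ubiquitin ligase NEDD4L (-0.59) fell, as did the deubiquitinases USP4 (-0.53) and USP11 (-0.50) and the ligase RNF111 (-0.51), and after the neighbour correction these were at 0.01, -0.28, 0.02 and -0.09, none past the threshold. USP11 also lost its call without control replicate 2 (adjusted p 0.0666) or PARK2 replicate 2 (0.074), and RNF111 without PARK2 replicate 2 (0.0502). In this list 6 rose without control replicate 1 and 0 without control replicate 2 or PARK2 replicate 3, while 3 fell without control replicate 2 and 2 without PARK2 replicate 2, which also left 1 higher.

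Target genes moved both ways. Of 15 SMAD2/3 targets 4 rose and 3 fell, and 5 fell without control replicate 3 and 1 without PARK2 replicate 2. FN1, or fibronectin, rose from 996 ± 173 to 2434 ± 51.5 (1.29, limma's adjusted p 3.56e-12), as did the cytokine IL11 (1.29) and the smooth muscle protein TAGLN (0.66), while the matrix protein TGFBI fell (-0.77). FN1 and TAGLN were at 0.28 and 0.10 (adjusted p 0.434 and 0.808) without probe sets marked _x_at and _s_at. Each value then came from a dim probe set with overlap, at means of 12.9 and 19.4 for FN1 and 17.8 and 19.7 for TAGLN. The bright FN1 probe sets, all so marked, were at 1.29, 1.20, 1.01 and 1.25 without overlap, and a dim marked one at 0.20 with overlap. The brighter TAGLN probe sets, also marked, were at 0.66 and 0.76 without overlap. Of 11 SMAD1/5/9 targets 2 rose and 3 fell, and 4 rose without control replicate 1 and 1 without control replicate 3 or any single PARK2 array. ID4 rose by 1.71 (adjusted p 2.04e-15) and the Notch and BMP target HEY1 fell by 1.41 (adjusted p 3.78e-12), with MSX1 at -0.86 and RUNX2 at -0.62. RUNX2 was at 0.18 (adjusted p 0.434) as the mean of its probe sets, which differed in sign, and MSX1 at -0.12 (adjusted p 0.743) on its dimmer probe set. The classical BMP target ID1 was at 0.21 (adjusted p 0.203).

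**Figure D4:**
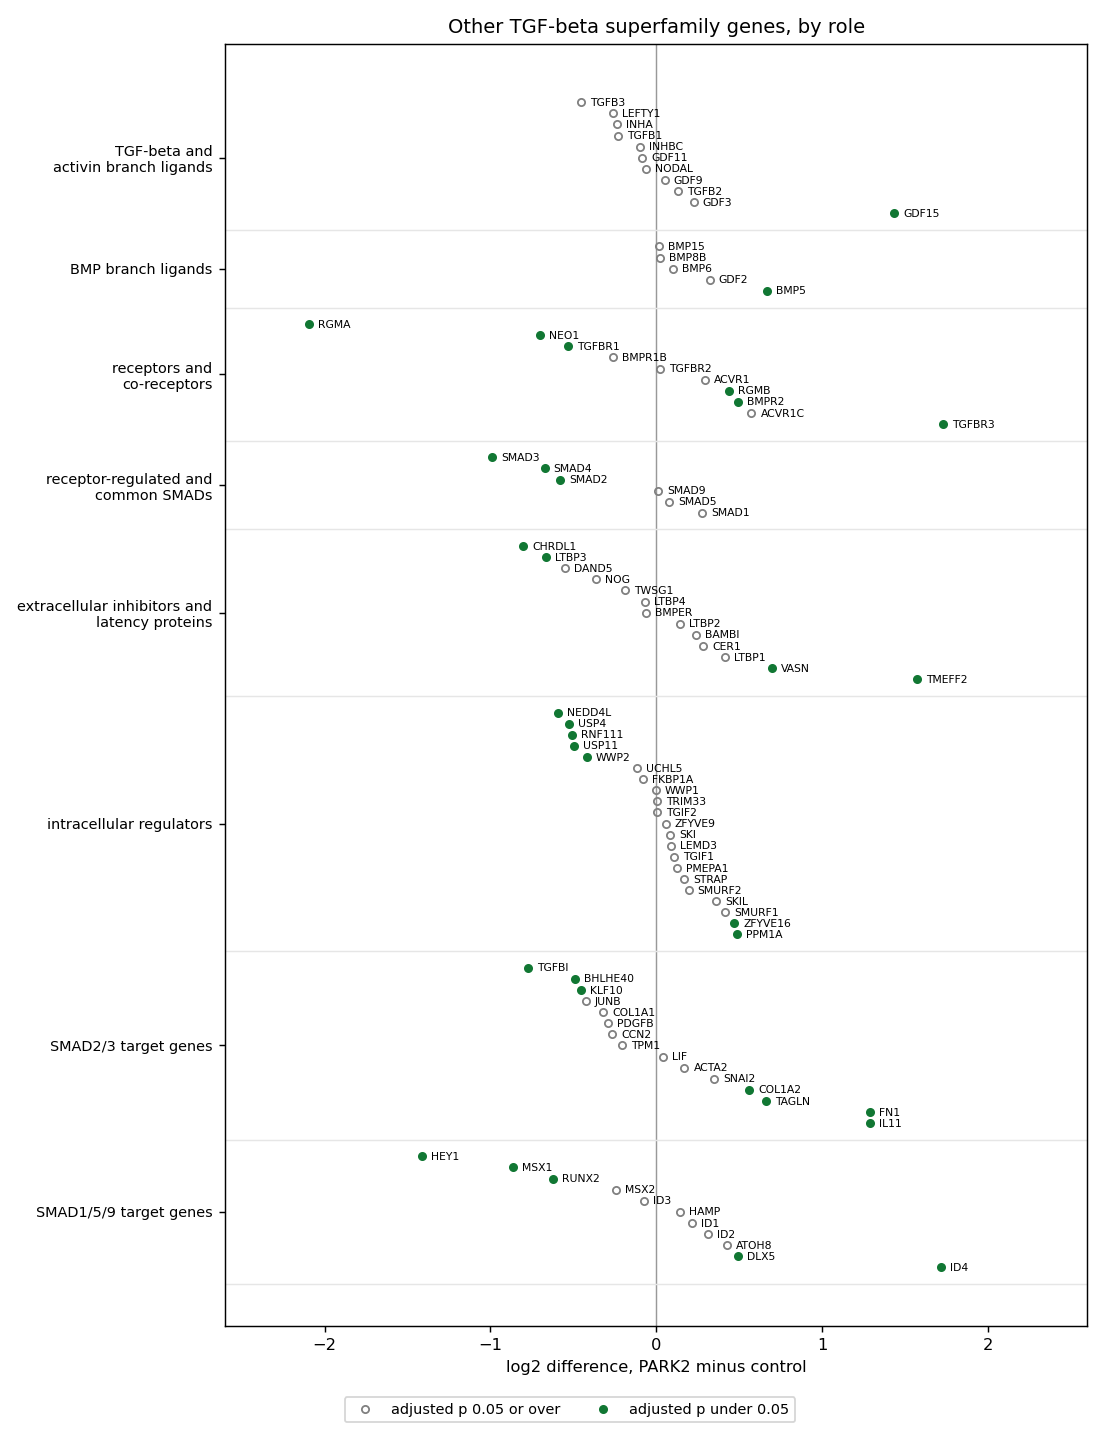
Log2 difference, PARK2 minus control, of the 92 tested genes of 8 lists of the TGF-beta superfamily, each by its brightest probe set, with filled points for an adjusted p under 0.05. In each list but those of the ligands and of the SMADs filled points lie on both sides of 0, and the 3 filled points of the SMAD list, SMAD3, SMAD4 and SMAD2, all lie below it.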

How the data were processed

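The members, gene lists and tests were chosen with earlier results of these data known. The authors deposited a linear intensity for every probe set of each array. The submitters' processing notes list GCOS and MAS5 without a version, role or scaling target, so the scaling between arrays is unknown. Symbols come from the GEO annotation of the platform (41091 probe sets with 1 symbol, 1801 with several, 11721 with none in the table used), with gene numbers looked up in RefSeq for GRCh38.p14, which updated 0 symbols.

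Intensities were turned into log2(value + 16) with no further normalization. The 62 control probe sets, those without a single symbol and those with a mean under the 40th percentile were left out, which kept 26603 probe sets. PARK2 was compared with control by limma 3.58.1 (R 4.3.3), its prior variance following intensity (13.7 prior against 4 residual degrees of freedom). Pathway genes and neighbours come from a second fit of 13720 genes by their brightest probe set (60.8 prior degrees of freedom), whose adjusted p-values are smaller. Every member probe set is given. Of each pathway list, the text names up to 4 genes past the threshold with the largest difference, or else the 2 with the smallest p. TGFB1 to TGFB3, INHA, INHBC, ID1, SMAD1, SMAD5, SMAD9, SUGCT and GLI3 were named outside this rule after their values were seen. The transgene's own level was not analysed here.

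No arrays were duplicates (r within groups 0.984 to 0.988, between groups 0.969 to 0.973). Deviations from the group mean were compared between arrays with the same replicate number (r over probe sets 0.401, 0.179 and 0.13 for replicates 1, 2 and 3). Other pairs were at -0.284 to 0.162, so only replicate 1 stood clearly above them. A further fit took the replicate number as a block. The number is in the labels, which do not say that such arrays were paired. On simulated arrays of 26603 probe sets for PARK2 against control, with 200 changed probe sets, limma recovered 5.97% at 1.5-fold, 44.8% at 2-fold and 95.5% at 4-fold, with 8 false calls. In the data 5416 probe sets were called, so the adjusted threshold was stricter in the simulation, and its figures do not carry over to the data. The number of arrays limits the precision.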

Additional observations from a re-analysis of the deposited data

How the results depend on the processing

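Of 440 values of member probe sets under the alternatives, 406 kept their direction and side of the threshold (or, untested, moved by less than the replicate spread), and 0 called values reversed. These counts include INHBA, SMAD7 and FSTL3, which were chosen for their difference, so nothing is read from how their values held. The counts of member probe sets were 8 higher and 4 lower. The 4 are all of INHBA and SMAD7, which were chosen for being lower, so nothing is read from them. When 1 array was left out, the count of the 7 genes not chosen for their difference, 7 higher and 0 lower, ran from 6 to 7 higher and stayed at 0 lower. Without probe sets marked _x_at and _s_at 5 member probe sets were higher. As genes by the brightest probe set 4 of 9 tested members were higher and 2 lower. Outside the chosen genes 3 of 6 were higher and 0 lower, against 13.3% and 15.6% of all genes. With array weights, a fit that stopped before it converged, 2 probe sets of the 7 other genes were lower. The replicate block changed no call of a member or of a named pathway gene, with 8 member probe sets higher and 4 lower, 2569 and 3202 of all probe sets, and 13 and 19 pathway genes, so the pairing left these counts within 1.5 times.

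Of all probe sets 2422 were higher and 2994 lower. These counts were 3705 higher under quantile normalization, 3735 higher under trimmed mean scaling, 5905 and 5352 with array weights, 1433 and 1733 at a threshold of 0.01, 1830 lower without _x_at and _s_at and 1663 lower after the neighbour correction. When 1 array was left out they ran from 1498 to 3659 higher and from 2144 to 3170 lower, with the extremes of the higher count without PARK2 replicate 3 and without control replicate 1. No scaling moved the share of higher calls by over 10 percentage points (43.3% to 50.6%). Of the pathway genes 15 were higher and 19 lower, and 26 higher under quantile normalization, 23 under trimmed mean scaling, 33 higher and 29 lower with array weights, 10 lower without _x_at and _s_at and 11 lower after the neighbour correction. They ran from 9 to 26 higher and from 15 to 22 lower when 1 array was left out. Called values that reversed were LTBP3 (0.26 without _x_at and _s_at, which leaves a dim probe set with overlap) and RUNX2 (0.18 as the mean of its probe sets). After the neighbour correction SMAD2 (0.066), NEDD4L (0.009) and USP11 (0.016) reversed. Causes were not tested. The alternative of 1 value per gene gives no value for a single probe set. Dim probe sets, with means near 9.96, hold little signal over background, and their log2 differences follow the pseudocount.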
